A study of Mus musculus with 6 samples.

Results

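Genes of cell division and DNA replication were examined in sorted cervical motor neurons of the mouse embryo. The members were 38 listed genes, and a probe belonged to the group when the platform annotation gave it 1 of these symbols, whether it was detected or not. Of the 38 genes, 36 had a probe, 78 probes in all, out of 19057 genes named in the annotation. The genes fall by role into 10 S-phase genes, which copy DNA or make its building blocks, 9 regulators of the G1/S step, 16 genes of G2 and mitosis, called mitotic genes here, and 3 inhibitors of the cycle.

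The samples were 3 of wild-type genotype and 3 labelled Hox5 mut, all from embryos at stage e12.5 on a mixed c57/bl6, balbc and fvb background. The mutant genotype in the series title is Hoxa5fl/fl::olig2CREHoxc5-/-, in which a conditional Hoxa5 allele is recombined by Cre expressed from Olig2, a gene of motor neuron progenitors, and Hoxc5 is null in every cell. All samples, wild type included, were sorted by fluorescence from HB9::GFP embryos, whose motor neurons carry a green fluorescent protein. The labels do not say whether the wild-type embryos carried Cre or a floxed allele, or whether a sample pools embryos. Each sample was read on 1 single-colour Illumina bead array. The p-values measure only the spread between these 6 samples, which may be technical, and 3 arrays a group limit the precision.

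A cell that divides first commits in G1, when D-type cyclins with Cdk4 or Cdk6 and then cyclin E with Cdk2 inactivate the retinoblastoma protein and release E2F transcription factors. It then copies its DNA from origins opened by the MCM helicase, and afterwards passes through G2 into mitosis under Cdk1 with cyclins A and B. In the ventral spinal cord, progenitors beside the central canal divide, while motor neurons leave the cycle as they are born and keep CDK inhibitors such as Cdkn1b and Cdkn1c. Transcripts of mitotic genes are made mainly by dividing cells.

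The arrays carried 45281 probes, of which 19307 to 20307 an array were detected, that is, had a detection p under 0.05. Levels below are log2 intensities after background correction and quantile normalization, and a difference is mutant minus wild type on that scale. A constant added before the logarithm makes differences of dim probes come out too small. Only the same probe was compared between arrays, since brightness of different probes does not rank genes. The probes of the targeted genes could not check the genotype: Hoxa5 was detected on all 6 arrays, at 13.99 ± 0.0432 (SD, n = 3) in wild type and 13.54 ± 0.348 (SD, n = 3) in the arrays labelled mutant, and Hoxc5 at 6.58 ± 0.105 (SD, n = 3) and 7.31 ± 0.633 (SD, n = 3). No source says whether these probes lie inside the deletions, so mutant replicates are arrays labelled mutant and every direction rests on that label. Mutant replicate 1 stood apart from the other arrays, with a globin level far above them (given with the marker genes further on). The medians of the groups of genes are therefore also given without that array, as are most of the differences that it moved.

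Of the 36 genes with a probe, 29 were detected on at least 3 of the 6 arrays and were tested, and 27 of these were detected on all 6. A gene detected on only some arrays can pass this filter through its bright arrays, which here concerned Mcm3 and Pcna, each detected on 4. The filter also left out dim members, so the 29 are not all members. The 7 others were the cyclins E Ccne1 and Ccne2, the G1 kinase gene Cdk6, the cyclins Ccna2 and Ccnb2, the checkpoint kinase gene Bub1 and the kinetochore motor gene Cenpe. The Ccne1 probe was detected on mutant replicate 3 alone, and the probes of the other 6, 2 for Bub1 and 1 for each of the rest, were detected on no array. Mki67 and Ccnb1 had no probe under their symbols, so their expression was not analysed here, and they enter only the search of promoters.

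The first question was whether loss of the Hox5 genes, as labelled, went with a difference in these genes. No tested member differed between the groups beyond the spread of the arrays: the 3 values of each group overlapped for all 29 genes, and all 29 intervals of the difference included 0. In limma's test across 13638 features, 0 of 29 passed at an adjusted p of 0.05, each with a limma adjusted p of 0.998, and the smallest unadjusted p among them was 0.102, for Pcna. Across all features the percentage called was 0, 1.77% had an unadjusted p under 0.05 (0.829% higher and 0.939% lower), and the groups did not overlap for 5.51% (2.66% higher and 2.84% lower in the mutant arrays). The fitted difference was above 0 for 17 members and below 0 for 12, beside 47.4% of all features above 0, with a median of 0.05 for the members and −0.014 for all features. When mutant replicate 1 was left out, 8 were above 0 and 21 below, with a median of −0.19. When both arrays numbered 1 were left out, 16 were above 0 and 13 below, with a median of 0.010. In both cases 0 passed with limma. A p that misses the threshold does not show that the groups were alike, and the intervals of several genes, such as Plk1 and Ccnd2, allow more than a 2-fold difference in the higher direction and, for Ccnd2, in the lower direction too.

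**Figure D1:**
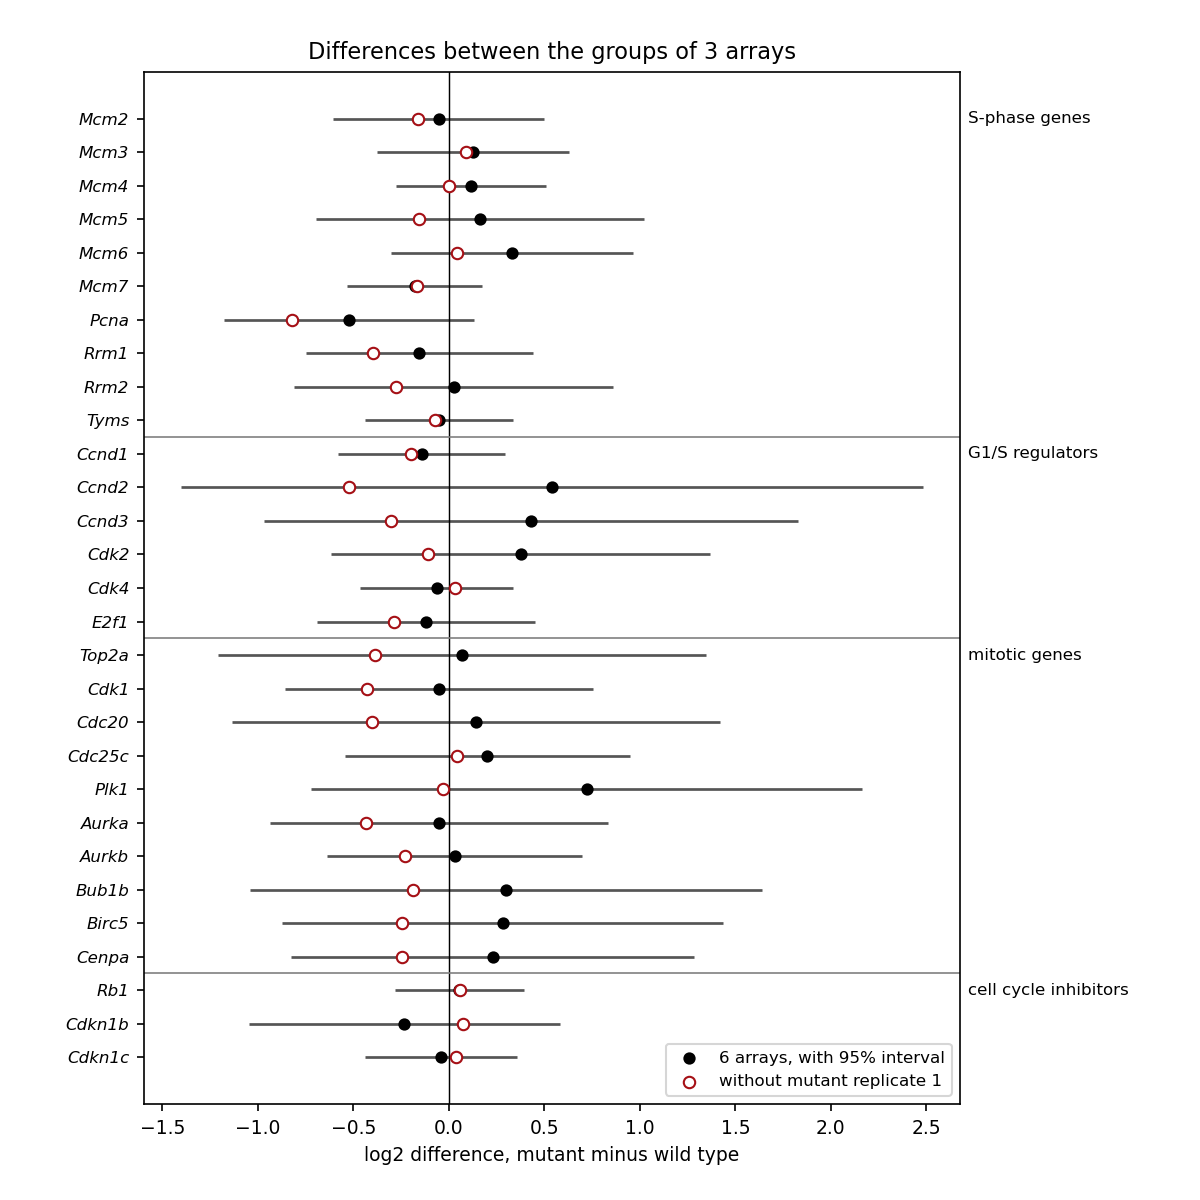
Log2 difference, mutant minus wild type, for the 29 tested genes, grouped by role. Filled points are fits over 6 arrays with limma 95% intervals, all of which include 0, and open points are differences without mutant replicate 1.

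Mitotic genes varied widely from array to array, and the 10 tested genes did so together. In each group the array numbered 1 gave the top value for all 10, as it did for 17.7% of all features. The 6 arrays spanned a median of 1.73 on the log2 scale for a mitotic gene, beside 0.67 for all features. For 9 of the 10 the top value over both groups was on mutant replicate 1, beside 25.7% of all features, and the exception was Cdc25c. Mutant replicate 1 lay at least 1 log2 unit above the mean of the other 5 arrays for 6 mitotic genes and 9 of the 29 tested members, beside 6.53% of all features. These counts describe arrays inside each group and carry no test between genotypes.

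Cdc20, which activates the anaphase-promoting complex so that sister chromatids can separate, stood at 9.59, 8.19 and 8.46 on wild-type replicates 1, 2 and 3 and at 9.97, 8.59 and 8.09 on the mutant replicates. Both arrays numbered 1 were above all 4 others, and replicates 2 and 3 of the groups overlapped. The means were 8.74 ± 0.741 (SD, n = 3) and 8.89 ± 0.975 (SD, n = 3), a difference of 0.14 (95% interval −1.14 to 1.42), which was −0.40 without mutant replicate 1. With both arrays numbered 1 left out the difference was 0.018. The 3 other kept probes of Cdc20 showed the same order of the arrays numbered 1, with mutant replicate 1 above the mean of mutant replicates 2 and 3 by 1.81, 1.05 and 1.80, and wild-type replicate 1 above wild-type replicates 2 and 3 by 1.54, 0.62 and 1.18.

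Bub1b, a kinase of the spindle assembly checkpoint, measured 8.42, 6.60 and 7.39 in wild type and 8.74, 7.64 and 6.93 in the mutant arrays. The SD within wild type, 0.912 (n = 3), was larger than the difference between the groups, 0.30 (95% interval −1.04 to 1.64), which was −0.19 without mutant replicate 1. With both arrays numbered 1 left out the difference was 0.29. Birc5, the survivin subunit of the chromosomal passenger complex, measured 8.51, 7.57 and 7.71 in wild type and 9.27, 8.0 and 7.36 in the mutant arrays. Its 2 other kept probes gave differences of 0.44 and 0.24, beside 0.28 (95% interval −0.87 to 1.44) for the brightest, which was at −0.25 without mutant replicate 1. The brightest was at 0.045 without both arrays numbered 1.

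Cenpa, the histone variant that marks centromeres, was at 11.08, 10.05 and 10.21 in wild type and 11.62, 10.33 and 10.07 in the mutant arrays. Top2a, the topoisomerase that untangles sister chromatids, was at 7.32, 6.16 and 6.15 in wild type and 7.53, 6.82 and 5.50 in the mutant arrays, so that mutant replicate 3 was the lowest array and mutant replicate 1 the highest. For both genes the arrays numbered 1 stood above the 4 others. Their differences were 0.23 and 0.07 over all 6 arrays and −0.24 and −0.38 without mutant replicate 1. The latter still hold the high wild-type replicate 1, and without both arrays numbered 1 they were 0.071 and 0.0015.

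Plk1, the polo-like kinase that drives mitotic entry and spindle assembly, had the largest fitted difference of any tested member, 0.72 (95% interval −0.72 to 2.16). It measured 7.29, 6.52 and 6.51 in wild type and 9.0, 6.96 and 6.53 in the mutant arrays. Mutant replicate 1 was 2.23 above the mean of the other 5 arrays, a 4.71-fold excess, and without it the difference was −0.029. That value still holds wild-type replicate 1, at 7.29. With both arrays numbered 1 left out the difference was 0.23.

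The aurora kinases varied less. Aurka, which matures the spindle poles, was at 8.25, 7.64 and 7.38 in wild type and 8.47, 7.49 and 7.17 in the mutant arrays. Aurkb, the kinase of the chromosomal passenger complex, was at 6.69, 6.08 and 6.03 in wild type and 6.82, 6.04 and 6.04 in the mutant arrays. For both, replicates 2 and 3 of the groups lay close together and the arrays numbered 1 above them. Cdk1, the kinase of mitotic entry, was at 7.5, 6.90 and 6.97 in wild type and 7.83, 6.75 and 6.65 in the mutant arrays. Cdc25c, the phosphatase that activates Cdk1, was at 6.57, 5.54 and 5.88 in wild type and 6.52, 6.33 and 5.74 in the mutant arrays, and here mutant replicate 2 stood nearly as high as mutant replicate 1. The differences of these 4 genes lay between −0.051 (Cdk1 and Aurka) and 0.20 (Cdc25c). Without mutant replicate 1 they were −0.43 for Aurka, −0.23 for Aurkb, −0.43 for Cdk1 and 0.040 for Cdc25c. With both arrays numbered 1 left out they were, in the same order, −0.19, −0.020, −0.24 and 0.33. Over the 10 mitotic genes 8 were above 0 and 2 below, with a median of 0.17, and without mutant replicate 1 the counts turned to 1 above and 9 below, with a median of −0.25. With both arrays numbered 1 left out the median was 0.03, with 7 above 0 and 3 below, and leaving out each array in turn gave −0.25 to 0.53.

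**Figure D2:**
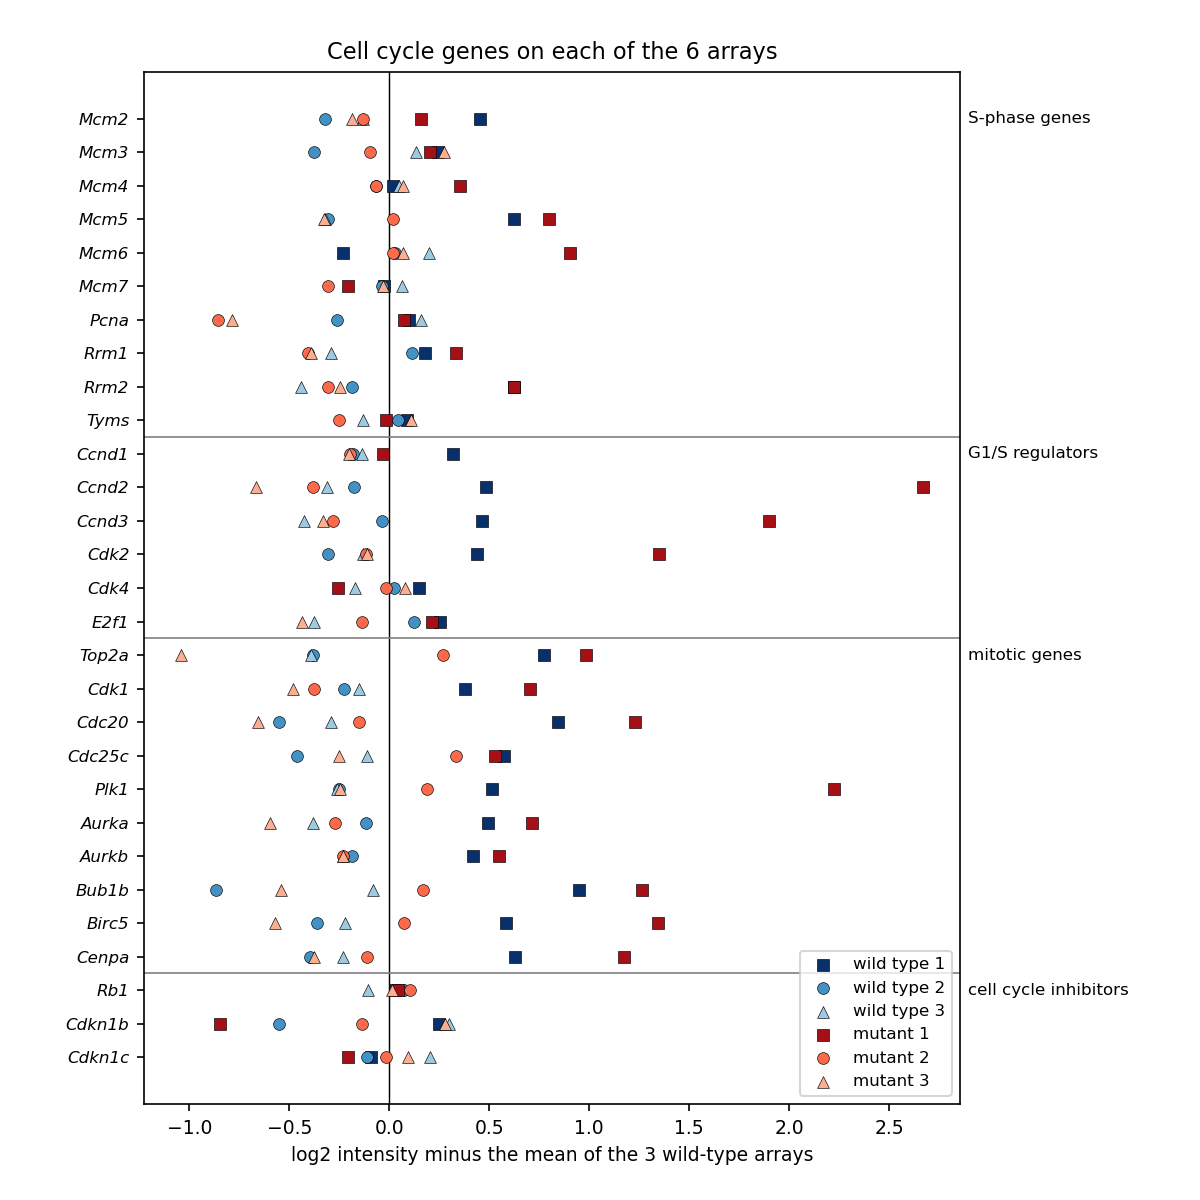
Log2 intensity of each tested gene on each array, minus the mean of the 3 wild-type arrays, with blue symbols for wild type, red for mutant and squares for the arrays numbered 1. The squares lie to the right of the same group's other symbols for all 10 mitotic genes, while Ccnd2, Ccnd3 and Plk1 have mutant replicate 1 far above the rest.

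The promoters of these genes were searched for motifs known from cell cycle transcription. The members were listed for roles in the cell cycle, so the motifs are not a feature apart from that choice. High shares among the members are described here and are not separate support. The motifs were the cell cycle genes homology region, or CHR, written TTTGAA or TTCGAA, the CCAAT box, and E2F sites, written TTTCCCGC, TTTCGCGC, TTTGCCGC or TTTGGCGC. All were read on both strands, in windows of 300 bases from RefSeq (build GRCm38.p6) that run from 250 bases before to 50 after a start site, and no motif contains another. A window was available for 29 of the 38 members, which are not the same 29 as those tested, and these genes had 31 windows. Among mitotic genes, 10 of 13 held a CHR (76.9%) and the same 10 held a CCAAT box as well, while 20.2% of 17492 protein-coding genes held a CHR and 9.24% held both. Birc5, Ccnb1 and Cenpe had no CHR match in the window. A CCAAT box was found in 12 of 13 mitotic genes (92.3%) and 8 of 9 S-phase genes (88.9%), beside 42.3% of protein-coding genes. An E2F match was found in 1 of 13 mitotic genes, Cdk1, beside 3.29% of protein-coding genes. Over all 32851 windows the shares were 19.2% for the CHR, 37.4% for the CCAAT box and 2.26% for E2F. A match is a string of letters in a window and was not shown to be a binding site here.

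The 250 bases before the start site are printed for 3 mitotic genes whose CHR matches all lie there, chosen after the matches were seen, with every motif match in capitals.
Cdc20, chr4:118437344-118437593, - strand: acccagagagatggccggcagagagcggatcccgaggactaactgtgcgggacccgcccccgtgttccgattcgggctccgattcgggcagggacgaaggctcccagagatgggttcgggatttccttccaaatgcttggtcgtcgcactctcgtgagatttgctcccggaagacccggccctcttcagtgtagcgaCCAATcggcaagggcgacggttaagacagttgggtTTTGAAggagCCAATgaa
Cdk1, chr10:69352913-69353162, - strand: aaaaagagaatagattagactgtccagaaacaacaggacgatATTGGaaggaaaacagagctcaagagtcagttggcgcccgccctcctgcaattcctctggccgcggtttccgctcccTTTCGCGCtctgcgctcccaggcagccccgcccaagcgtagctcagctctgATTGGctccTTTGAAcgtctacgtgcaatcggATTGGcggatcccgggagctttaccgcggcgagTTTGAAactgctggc
Top2a, chr11:99024190-99024439, - strand: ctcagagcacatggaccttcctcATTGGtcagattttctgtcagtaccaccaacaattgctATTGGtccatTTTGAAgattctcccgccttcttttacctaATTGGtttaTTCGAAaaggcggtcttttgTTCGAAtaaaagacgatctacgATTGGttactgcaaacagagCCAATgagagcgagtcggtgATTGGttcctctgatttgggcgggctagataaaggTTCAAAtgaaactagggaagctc
Counted from the start site, the CHR of Cdc20 begins at position −18, between CCAAT boxes at −53 and −8. Cdk1 has CHR matches at −71 and −15 and an E2F match at −131. Top2a has CHR matches at −179, −140, −120 and −23, among CCAAT boxes on both strands.

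**Figure D3:**
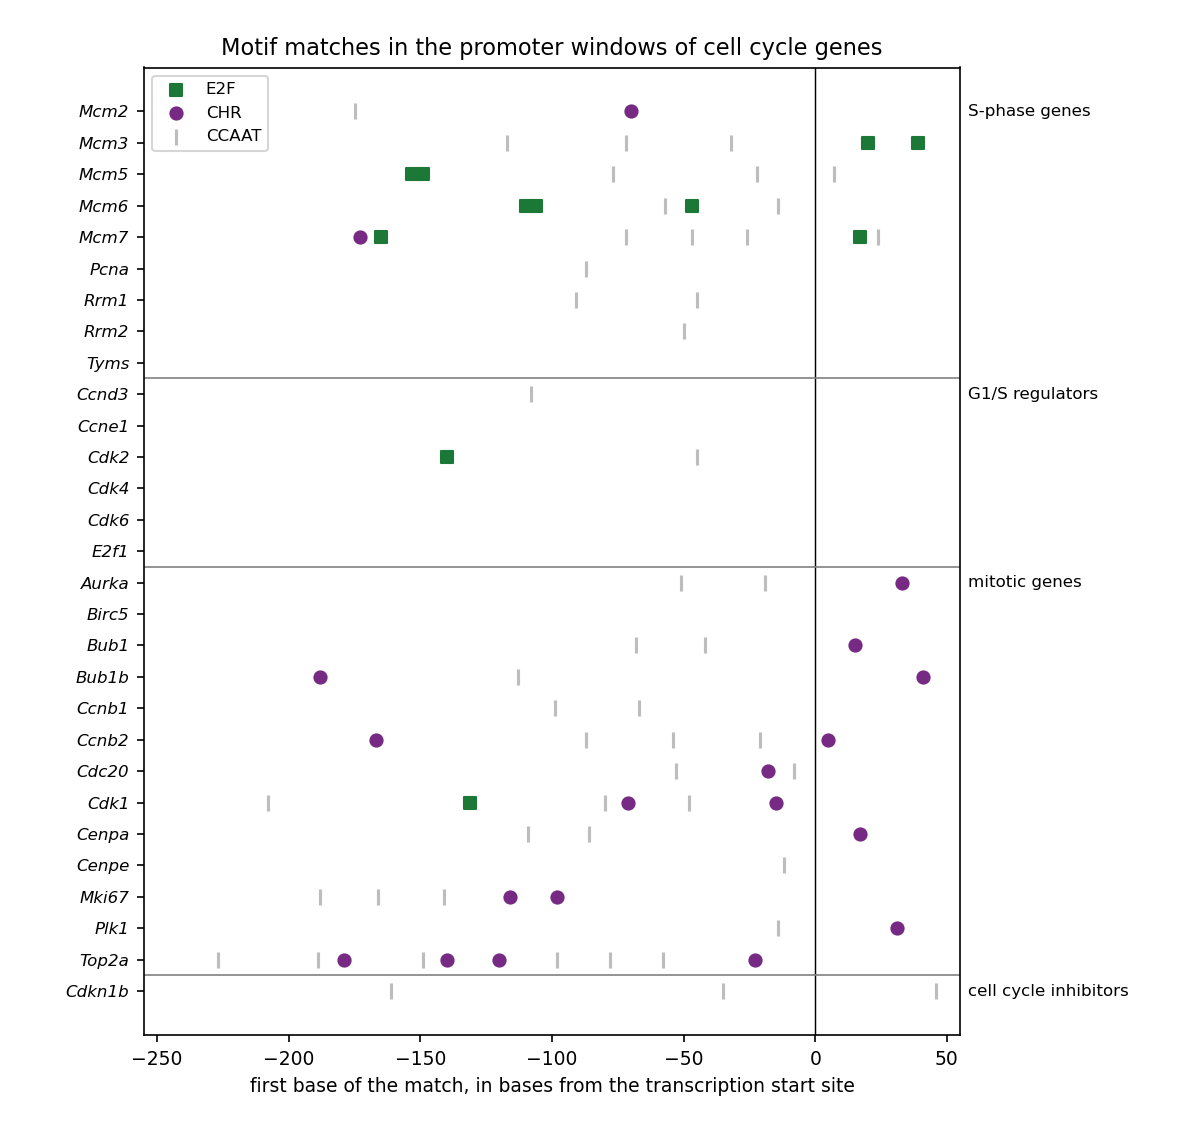
Position of E2F, CHR and CCAAT matches in the promoter windows of the 29 members with a window, in bases from the transcription start site, grouped by role. CHR matches appear in 10 of 13 mitotic genes and E2F matches in 4 of 9 S-phase genes.

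S-phase genes varied less between arrays than mitotic genes, and fewer had their top values on the arrays numbered 1. For the 10 tested genes the arrays spanned a median of 0.76 on the log2 scale, beside 1.73 for mitotic genes. Both arrays numbered 1 were the highest of their groups for 4 of the 10 (40%), Mcm2, Mcm5, Rrm1 and Rrm2. The fitted difference was above 0 for 5 and below 0 for 5, with a median of −0.014, and −0.16 to 0.15 when each array was left out in turn, the lowest without mutant replicate 1.

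The MCM genes encode the 6 subunits of the replicative helicase, which are loaded at origins as a ring. Mcm5 was at 10.02, 9.09 and 9.07 in wild type and 10.19, 9.41 and 9.07 in the mutant arrays, which is the pattern of the mitotic genes. Its difference was 0.16 over all arrays, −0.15 without mutant replicate 1 and 0.16 without both arrays numbered 1. Mcm2 was at 8.35, 7.58 and 7.77 in wild type and 8.06, 7.77 and 7.71 in the mutant arrays, with wild-type replicate 1 the highest. Mcm6 was at 7.99, 8.25 and 8.42 in wild type and 9.13, 8.24 and 8.29 in the mutant arrays. Unlike Mcm5, Mcm6 on its brightest probe was high on mutant replicate 1 only and lowest on wild-type replicate 1.

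Mcm6 had 2 other kept probes, and they disagreed with each other. The dimmer of these at wild-type replicate 1 measured 4.37, 4.35 and 7.48 in wild type and 9.22, 7.42 and 7.34 in the mutant arrays, with no detection on wild-type replicates 1 and 2. The other measured 7.22, 6.75 and 7.5 in wild type and 7.77, 7.28 and 7.38 in the mutant arrays. Their differences were 2.59 and 0.32, beside 0.33 (95% interval −0.30 to 0.97) for the brightest probe, which was at 0.044 without mutant replicate 1, and the first is not a measured size because of the undetected arrays.

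Mcm4 and Mcm7 were among the steadiest members on their brightest kept probes. Mcm4 was at 10.61, 10.53 and 10.64 in wild type and at 10.95, 10.53 and 10.66 in the mutant arrays. Its difference was 0.12 over all arrays and 7.2e-05 without mutant replicate 1. Mcm7 was at 8.36, 8.34 and 8.44 in wild type and 8.18, 8.08 and 8.35 in the mutant arrays, a difference of −0.18 (95% interval −0.53 to 0.18). Its other kept probe was less steady, at 5.99, 5.62 and 5.29 in wild type and 5.18, 5.54 and 5.84 in the mutant arrays. Mcm3 was dim, at 5.07, 4.45 and 4.96 in wild type and 5.03, 4.73 and 5.10 in the mutant arrays, and was not detected on replicate 2 of either group.

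Pcna, the sliding clamp that holds DNA polymerase on its template, was at 5.70, 5.34 and 5.76 in wild type and 5.67, 4.74 and 4.81 in the mutant arrays. Mutant replicates 2 and 3 lay below every wild-type array and were not detected, while mutant replicate 1 lay inside the wild-type range. The fitted difference, −0.52 (95% interval −1.18 to 0.13), is not a measured size because of those undetected arrays, and it was −0.18 without background correction and −0.27 with an offset of 50. Without mutant replicate 1 it was −0.82, with an unadjusted p of 0.00301 and a limma adjusted p of 1, and there neither mutant array was above background. Pcna had 1 probe, so no second measurement was at hand.

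The enzymes of nucleotide supply split. Rrm2, the regulated subunit of ribonucleotide reductase, was at 7.73, 6.92 and 6.66 in wild type and 7.73, 6.80 and 6.86 in the mutant arrays, with the arrays numbered 1 nearly equal and above the others. Rrm1, the large subunit, was at 9.31, 9.25 and 8.84 in wild type and 9.47, 8.73 and 8.74 in the mutant arrays. Tyms, thymidylate synthase, was nearly level at 8.49, 8.45 and 8.27 in wild type and 8.39, 8.15 and 8.51 in the mutant arrays. The other kept probes of Rrm1, Rrm2 and Tyms gave a sign opposite to the brightest probe, at 0.30, −0.15 and 0.03 beside −0.15, 0.02 and −0.052. Without mutant replicate 1 the brightest probes gave −0.40, −0.27 and −0.071, and without both arrays numbered 1 −0.31, 0.038 and −0.026.

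In the promoter windows, 4 of 9 S-phase genes (44.4%) held an E2F match, Mcm3, Mcm5, Mcm6 and Mcm7, and 2 of 9 held a CHR. The upstream bases are printed for Mcm5 and Mcm6, the S-phase genes with the widest range over the arrays, with the same capitals.
Mcm5, chr8:75109259-75109508, + strand: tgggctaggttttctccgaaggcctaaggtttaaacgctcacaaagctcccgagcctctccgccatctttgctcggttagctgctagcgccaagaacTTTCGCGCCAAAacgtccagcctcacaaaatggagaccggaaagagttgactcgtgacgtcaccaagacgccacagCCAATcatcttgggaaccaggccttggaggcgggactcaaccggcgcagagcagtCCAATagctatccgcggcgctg
Mcm6, chr1:128359706-128359955, - strand: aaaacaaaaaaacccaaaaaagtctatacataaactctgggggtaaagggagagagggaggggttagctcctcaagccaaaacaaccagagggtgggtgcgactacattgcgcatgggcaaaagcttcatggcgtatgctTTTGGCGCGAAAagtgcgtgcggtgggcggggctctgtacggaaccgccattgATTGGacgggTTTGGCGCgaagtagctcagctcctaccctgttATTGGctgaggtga
In Mcm5, E2F matches on the 2 strands overlap and begin at −153 and −149. In Mcm6 an overlapping pair begins at −110 and −106 and a further E2F match at −47. Mcm5 and Mcm6 share this motif, and whether it bears on their levels across the arrays was not tested.

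Among the G1/S regulators, cyclins D2 and D3 and Cdk2 were far higher on mutant replicate 1 than elsewhere. Ccnd2, a cyclin of dividing progenitors, was at 7.56, 6.90 and 6.76 in wild type and 9.74, 6.69 and 6.41 in the mutant arrays. Mutant replicate 1 was 2.88 above the mean of the other 5, a 7.35-fold excess and the largest of any tested member, while mutant replicates 2 and 3 lay below every wild-type array. The difference between groups was 0.54 (95% interval −1.40 to 2.48), and −0.52 without mutant replicate 1. The 2 other kept probes of Ccnd2 placed mutant replicate 1 above mutant replicates 2 and 3 by 2.87 and 1.05.

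Ccnd3 was at 9.03, 8.53 and 8.14 in wild type and 10.47, 8.29 and 8.24 in the mutant arrays, and its difference was 0.43 over all arrays and −0.30 without mutant replicate 1. Cdk2, the partner of cyclins E and A, was at 9.22, 8.47 and 8.65 in wild type and 10.13, 8.66 and 8.67 in the mutant arrays, a difference of 0.38 that became −0.11. For both, as for Ccnd2, wild-type replicate 1 led the wild-type arrays. With both arrays numbered 1 left out, the differences were −0.074 for Ccnd3 and 0.11 for Cdk2.

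Ccnd1, Cdk4 and E2f1 did not share the large excess of mutant replicate 1, and their highest array was wild-type replicate 1. Within the groups, both arrays numbered 1 were still the highest for Ccnd1 and E2f1. This held for 5 of the 6 tested G1/S regulators (83.3%), all but Cdk4, beside 17.7% of all features. Ccnd1, which is induced by growth signals in G1, was at 10.63, 10.13 and 10.18 in wild type and 10.28, 10.12 and 10.11 in the mutant arrays. Cdk4, the partner of D-type cyclins, was at 11.34, 11.21 and 11.02 in wild type and 10.94, 11.18 and 11.27 in the mutant arrays, with mutant replicate 1 the lowest of all. E2f1, a transcription factor that switches on S-phase genes, was at 8.27, 8.14 and 7.64 in wild type and 8.23, 7.88 and 7.58 in the mutant arrays. Its difference was −0.12 over all arrays and −0.29 without mutant replicate 1. The other kept probe of Cdk4 gave a difference of 0.36 against −0.063 for the brightest, which was at 0.032 without mutant replicate 1. Over the 6 tested G1/S regulators 3 were above 0 and 3 below, with a median of 0.16. That median was −0.056 without both arrays numbered 1, and it ranged from −0.24 without mutant replicate 1 to 0.33 without mutant replicate 3 when each array was left out in turn.

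The inhibitors did not have their highest values on the arrays numbered 1. Cdkn1c, which encodes the CDK inhibitor p57, was at 13.95, 13.93 and 14.24 in wild type and 13.83, 14.02 and 14.13 in the mutant arrays, a difference of −0.043 (95% interval −0.44 to 0.35). Rb1, the retinoblastoma gene, had the narrowest range of all tested members, 0.21, at 10.98, 11.03 and 10.85 in wild type and 11.001, 11.06 and 10.97 in the mutant arrays. Cdkn1b, which encodes the CDK inhibitor p27, was at 5.98, 5.18 and 6.03 in wild type and 4.89, 5.60 and 6.01 in the mutant arrays. Mutant replicate 1 was the lowest array for Cdkn1b and Cdkn1c and was the highest mutant array for none of the 3, although under cyclic loess it was the highest of the 6 for 1 of them. The differences of Cdkn1b and Cdkn1c turned from −0.23 and −0.043 to 0.07 and 0.04 without it, and that of Rb1 was 0.05 with it and 0.06 without it but was −0.064 under median scaling and −0.051 when its 2 probes were averaged.

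Which array was highest within each group did not change with the scaling for mitotic genes, while the comparison across groups did. Without background correction, with an offset of 50, with cyclic loess, with median scaling and with the authors' normalized values, both arrays numbered 1 were again the highest of their groups for 10 of 10 mitotic genes, where the share of all features was 17.7% to 21.6%. The count of mitotic genes with mutant replicate 1 as the highest of all 6 arrays was 9 or 10 except under median scaling, where it was 6. For S-phase genes that count ranged from 2 under median scaling to 7 under cyclic loess.

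Other genes of the cycle, listed by role and not by how they moved, were counted in the same way. Of 50 further S-phase genes 38 were tested, of 50 further mitotic genes 34 and of 20 further inhibitors and antiproliferative genes 14, and 0 passed with limma in either direction in each list, with 0 at an unadjusted p under 0.05. The medians of the difference were 0.06, −0.016 and 0.01, beside −0.014 for all features, with 25, 17 and 8 genes above 0, and without mutant replicate 1 they were −0.023, −0.24 and −0.14. Both arrays numbered 1 were the highest of their groups for 20 of 38, 22 of 34 and 3 of 14 of these genes. In the order of the lists, the groups did not overlap for 2, 1 and 1 genes, or 4 in all, beside 5.51% of all features.

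The 3 genes of each list with the smallest unadjusted p were Rfc5, Fen1 and Cdt1, then Ckap2, Cenpk and Smc2, then Cdkn2d, E2f4 and Gadd45a. Their differences were 0.22 for the clamp loader subunit gene Rfc5, −0.20 for the flap endonuclease gene Fen1 and 0.40 for Cdt1, which loads the MCM ring. They were −0.26 for the spindle protein gene Ckap2, −0.31 for the kinetochore gene Cenpk and −0.32 for the condensin gene Smc2. Cenpk was detected on 3 wild-type and 2 mutant arrays and Smc2 on 2 and 1, so their differences are not measured sizes. The CDK inhibitor gene Cdkn2d was at −0.32, the repressor gene E2f4 at −0.29 and the stress-induced gene Gadd45a at −0.30. Without mutant replicate 1 the differences were, in the order named, 0.14, −0.17, 0.13, −0.30, −0.47, −0.18, −0.14, −0.16 and −0.15.

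On mutant replicate 1, where the mitotic genes stood highest, markers of several cell types were high while motor neuron and interneuron markers were low. Relative to the wild-type mean, the median of the 10 mitotic genes stood at 0.58, −0.37 and −0.23 on wild-type replicates 1, 2 and 3 and at 1.08, −0.018 and −0.51 on the mutant replicates. The 16 tested progenitor markers of 20 listed stood at 0.33, −0.19 and −0.088 and at 1.29, −0.15 and −0.24. Mutant replicate 1 was the highest array for 12 of these 16 markers and the lowest for 2. The summed intensity of the 16 was 11203 to 16852 in wild type and 11580 to 31439 in the mutant arrays. The defining progenitor genes Pax6 and Olig2 were detected on no array. Progenitor examples were Id1, which blocks bHLH differentiation factors, at 9.15, 8.32 and 8.23 in wild type and 10.74, 8.37 and 8.31 in the mutant arrays, and the Notch target Hes1, at 9.40, 8.57 and 7.87 and at 10.26, 8.38 and 8.38.

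Blood markers showed the widest shift. The 5 tested of 11 listed stood at 1.89, −0.79 and −1.13 in wild type and 4.48, −0.22 and 0.05 in the mutant arrays, and the summed intensity was 1291 to 10542 in wild type and 2222 to 72785 in the mutant arrays. The alpha globin gene Hba-a1 was at 12.05, 8.96 and 8.54 in wild type and 15.05, 9.45 and 10.25 in the mutant arrays, while the erythroid factor gene Gata1 was detected on no array. The embryonic globin gene Hba-x was at 9.49, 6.80 and 6.45 and at 12.15, 7.18 and 7.27. Both arrays numbered 1 were the highest of their groups for these globins as for mitotic genes.

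Endothelium and mesenchyme markers were high on mutant replicate 1, and much less so on wild-type replicate 1. The 5 tested endothelium markers of 11 stood at 3.21 on mutant replicate 1 and 0.28 on wild-type replicate 1, with sums of 393 to 680 in wild type and 418 to 4449 in the mutant arrays, and the angiopoietin receptor family gene Tie1 was detected on no array. The 6 tested mesenchyme markers of 12 stood at 2.96 and 0.19, with sums of 1601 to 3691 and 1282 to 16882. The tight junction gene Cldn5 and the matrix gene Igfbp7, from the endothelium list, were at 9.28 and 11.14 on mutant replicate 1, and the growth factor receptor gene Pdgfra and the galectin gene Lgals1, from the mesenchyme list, at 9.75 and 11.05. The 3 tested neural crest markers of 6 stood at 1.14 and 0.25, with sums of 3508 to 4742 and 2916 to 9085, and the crest genes Sox10 and Ednrb were at 9.06 and 13.06 on mutant replicate 1, above the 5 other arrays, while Erbb3 was detected on no array. The 1 tested macrophage marker of 8, Cx3cr1, stood at 1.22 and 0.19, with 22 to 37 in wild type and 27 to 71 in the mutant arrays, and the leukocyte gene Ptprc was detected on no array.

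Markers of the labelled cell type were present. Of 12 motor neuron genes listed 11 were tested, and the transcription factor genes Mnx1, Isl1 and Lhx3 and the acetylcholine synthesis gene Chat were detected on all 6 arrays. These markers stood at 0.034, −0.18 and 0.052 in wild type and −0.61, 0.27 and −0.56 in the mutant arrays, with summed intensities of 4148 to 4620 and 1636 to 5581. Lhx4 was at 6.62 on mutant replicate 1 and between 9.80 and 11.07 on the other 5 arrays, and Prph, which encodes the filament protein peripherin, at 7.60 and between 8.88 and 10.08. The 12 tested interneuron markers of 13 stood at −0.82 on mutant replicate 1 and between −0.084 and 0.09 elsewhere, with sums of 20793 to 25979 in wild type and 11236 to 22945 in the mutant arrays. For 9 of these 12 the lowest array was mutant replicate 1. The interneuron factor genes Evx1 and En1 were at 8.41 and 10.02 there, below the 5 other arrays. Motor neuron markers were low on mutant replicate 3 as well (−0.56), the array on which the median of the mitotic genes was lowest (−0.51). The part of other cells in the levels of the cell cycle genes was not tested, and in sorted bulk samples a change in the number of cells of a type and a change in RNA per cell cannot be told apart.

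**Figure D4:**
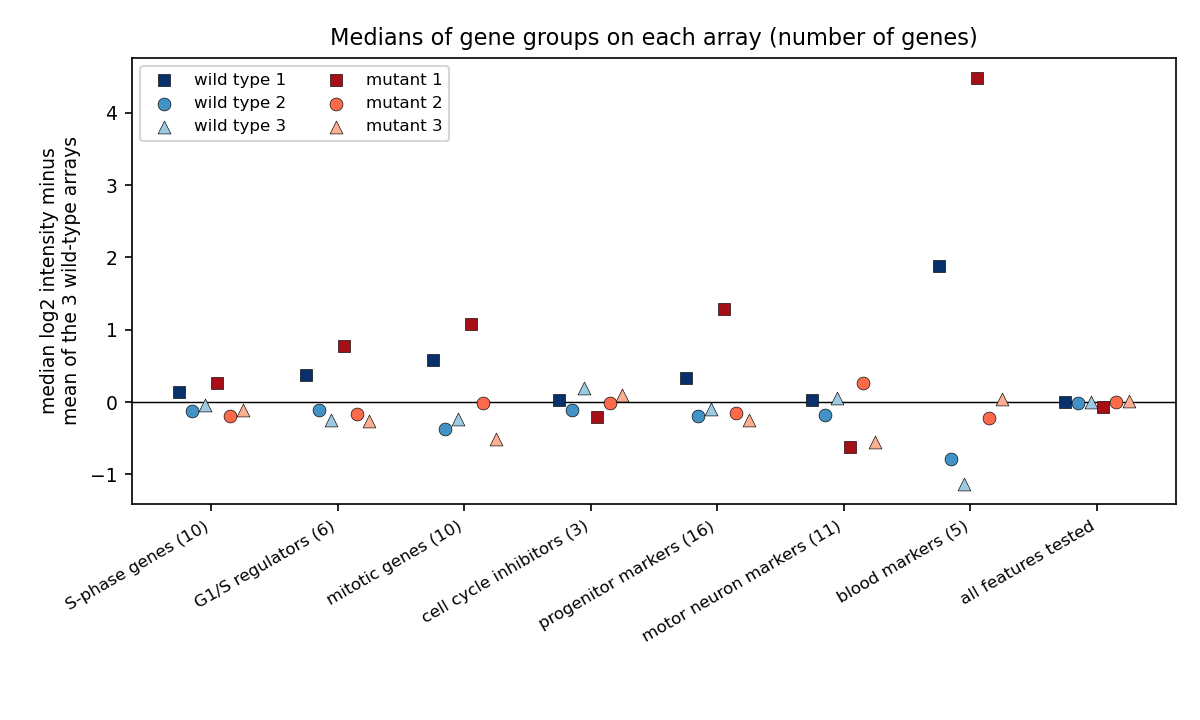
Median log2 intensity on each array, minus the mean of the 3 wild-type arrays, for the cell cycle groups, for marker lists and for all features tested, with the number of genes in brackets. Mitotic genes reach 0.58 on wild-type replicate 1 and 1.08 on mutant replicate 1, the inhibitors stay within 0.21 of the wild-type mean, and blood markers reach 1.89 and 4.48.

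For 15 members there were 22 further kept probes. Of these, 20 had the sign of the brightest probe for mutant replicate 1 against mutant replicates 2 and 3, 17 for wild-type replicate 1 against wild-type replicates 2 and 3, and 16 for mutant minus wild type. The 6 probes of opposite sign for the genotype belonged to 6 genes, Rrm1, Rrm2, Tyms, Cdk4, Cdc25c and Rb1.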

How the data were processed

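In the deposited signal table, per the file headers, each array has a linear intensity and a detection p-value for every probe. The authors' deposited series table held the same intensities after quantile normalization, which it matched within 1.45%. No source used here names the scanner software or the slides. Background was corrected by normexp (limma 3.58.1, R 4.3.3, offset 16), where negative controls were inferred through detection p-values, and log2 values were quantile normalized. Of 45281 probes, the 19735 with a detection p under 0.05 on at least 3 arrays were kept. The brightest kept probe stood for a gene and an unnamed probe for itself, which made 13638 features, 10438 of them named. The platform annotation gave 34885 probes 1 symbol, 18 several and 10378 none. Genotype was the only term in limma's lmFit and eBayes, with the variance prior over all kept probes and Benjamini-Hochberg adjustment over all features, and the test was tried on simulated data. All 38 members are named, with the 3 further cycle genes of smallest unadjusted p per list and the 2 markers of widest range per list. Alternatives changed background, scaling, filter, probe rule, variance model, weights, block and arrays. Members, lists and tests were chosen with earlier results of these data known.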

Additional observations from a re-analysis of the deposited data

How the results depend on the processing

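No alternative changed the result that 0 members passed. Over 18 alternatives, each with limma, 0 of the tested members passed, and no member had an adjusted p below 0.849. A member had an unadjusted p under 0.05 in 4 of them, Pcna with array weights (0.00382), without mutant replicate 1 (0.00301) and without both arrays numbered 1 (0.00948), and Mcm6 with probes averaged (0.0435). The features called numbered 0 to 1 when arrays were left out in turn, the 1 call, Cops8, chosen here after its value was seen, coming without mutant replicate 3, and 0 under the others. The median of the inhibitors was −0.23 under median scaling, where the median of all features was −0.06. Of 520 member differences under alternatives, 459 kept their sign and 61 did not, and their causes were not tested. The 459 include fits with another filter, variance model or block, which left the differences as they were. They also include averages of probes for genes with 1 kept probe. The count therefore does not measure how stable the signs were. Leaving out each array in turn gave ranges that crossed 0: −0.21 to 0.17 for Mcm2, −0.062 to 0.25 for Mcm3, −0.15 to 0.48 for Mcm5, −0.27 to 0.34 for Rrm2, −0.13 to 0.046 for Tyms, −0.23 to 0.018 for Ccnd1, −0.52 to 1.14 for Ccnd2, −0.30 to 0.81 for Ccnd3, −0.11 to 0.62 for Cdk2, −0.15 to 0.032 for Cdk4 and −0.31 to 0.039 for E2f1. They were −0.38 to 0.63 for Top2a, −0.43 to 0.16 for Cdk1, −0.40 to 0.56 for Cdc20, −0.029 to 0.49 for Cdc25c, −0.029 to 1.21 for Plk1, −0.43 to 0.22 for Aurka, −0.23 to 0.24 for Aurkb, −0.19 to 0.77 for Bub1b, −0.25 to 0.71 for Birc5, −0.24 to 0.54 for Cenpa, −0.51 to 0.072 for Cdkn1b and −0.11 to 0.058 for Cdkn1c. Array weights turned Aurkb to −0.10, Ccnd2 to −0.14, Ccnd3 to −0.0099, Cdc20 to −0.090, Cdk4 to 0.038, Cenpa to −0.0096, Mcm4 to −0.0058 and Rrm2 to −0.090. Averaging probes turned Cdk4 to 0.15, Rb1 to −0.051, Rrm1 to 0.071 and Rrm2 to −0.062, and median scaling turned Rb1 to −0.064. Without both arrays numbered 1, Aurkb was at −0.020, Ccnd2 at −0.28, Ccnd3 at −0.074, Cdk4 at 0.11, Cdkn1b at 0.20, Mcm2 at 0.066 and Mcm6 at −0.071.

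The titles number the replicates 1 to 3 in both groups, and deviations from the group means correlated across features at 0.32, 0.0133 and 0.104 for numbers 1, 2 and 3. Wild-type replicates 1 and 3 correlated best with the mutant replicates of the same number, and wild-type replicate 2 with mutant replicate 3. The labels do not say whether the numbers mark pairs, so the main fit did not pair them. With the replicate number as a block, 0 features and 0 members were called, 364 features had an unadjusted p under 0.05, against 241 without the block, and the smallest limma adjusted p was 0.978. Signal over background leaves 7 members unmeasured, and 3 arrays per group leave wide intervals.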
